A study of Mus musculus with 2 samples.

Results

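The choroid plexus genes described here are 8 genes, namely Ttr, Folr1, Kl, Clic6, Enpp2, Aqp1, Igfbp2 and Slc4a5, out of 45578 genes in a table of ribosome footprints from neonatal mouse brain. They were taken by symbol, after the trailing number of the transcript name had been removed. All 8 symbols were found, each under 1 Ensembl gene identifier, with 36 annotated transcripts among them. The footprints came from the polysomes of control brains of FVB mice at postnatal day 5, and both libraries (biological replicates 1 and 2) belonged to that single group. All animals had the genotype Smn+/-; SMN2tg/0, so the controls too had lost 1 copy of Smn and carried a human SMN2 transgene. Whole brain was used, and the choroid plexus was not dissected.

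The choroid plexus is a fringe of secretory epithelium that hangs in the brain ventricles and makes the cerebrospinal fluid. Its cells move ions and water from blood to ventricle, carry hormones and vitamins across, and secrete binding proteins and enzymes into the fluid. Ribosome profiling counts short mRNA fragments that a ribosome shields from nuclease, so a gene's footprint count reflects how many ribosomes lay on its transcripts. The values are levels of footprints and not translation per mRNA, since RNA abundance was not analysed here. In whole brain, fewer choroid plexus cells and fewer footprints per cell cannot be told apart.

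Replicate 1 held 1866831 footprints and replicate 2 held 5261878, so replicate 2 gives the tighter estimates. Levels are given as CPM, which are footprints per 1000000 of the library total, with 95% Clopper-Pearson intervals that cover counting error only. Every one of the 8 genes had footprints in both libraries. With a floor of 3 counts, a count of 0 would allow a level of 1.61 CPM in the shallower library and 0.570 CPM in the deeper one. All 8 neuronal markers checked were present too, Tubb3 and Snap25 among them, at a summed 6148 and 4814 CPM.

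Ttr encodes transthyretin, the carrier of thyroxine and of retinol-binding protein that the choroid plexus secretes into the cerebrospinal fluid. It had 1087 footprints in replicate 1 and 1456 in replicate 2, although the second library was 2.82 times as deep. This gave 582 CPM in replicate 1 (548 to 618) and 277 CPM in replicate 2 (263 to 291). The mean was 429 ± 216 (SD, n = 2). The intervals lay far apart, and replicate 1 was the higher. The coding sequence is short, at 148 codons with the stop included. Per kilobase of coding sequence, the level of Ttr was 1311 and 623 CPM. This ranked it at position 35 and position 99 of 13338 tested genes. Genes with no coding sequence or a very short one were left out of that ranking.

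Among the secreted members, Igfbp2 encodes a protein that binds insulin-like growth factors in extracellular fluid. It had 574 and 1100 footprints, or 307 CPM (283 to 334) and 209 CPM (197 to 222), and its mean was 258 ± 69.6 (SD, n = 2). These intervals were also separate, and replicate 1 was again the higher. Enpp2 encodes autotaxin, the secreted enzyme that makes lysophosphatidic acid, and is also a gene of the oligodendrocyte lineage. It had 297 and 1221 footprints, or 159 CPM (142 to 178) and 232 CPM (219 to 245), with a mean of 196 ± 51.6. Here replicate 2 was the higher, and the intervals did not overlap.

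The receptors were less abundant. Folr1 encodes folate receptor alpha, which takes up folate at the blood side of the epithelium. It had 45 and 183 footprints, or 24.1 CPM (17.6 to 32.3) and 34.8 CPM (29.9 to 40.2), with a mean of 29.4 ± 7.55 (SD, n = 2). Kl encodes klotho, the co-receptor for a circulating fibroblast growth factor. It had 15 and 38 footprints, or 8.04 CPM (4.50 to 13.3) and 7.22 CPM (5.11 to 9.91), with a mean of 7.63 ± 0.575. The intervals of both receptors overlapped between the libraries.

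The members that move ions and water were low as well. Clic6, of the chloride intracellular channel family, had 28 and 66 footprints, or 15.0 CPM (9.97 to 21.7) and 12.5 CPM (9.70 to 16.0). Aqp1, the water channel of the apical membrane, had 21 and 54 footprints, or 11.2 CPM (6.96 to 17.2) and 10.3 CPM (7.71 to 13.4). Slc4a5, a sodium bicarbonate cotransporter, had 9 and 19 footprints, or 4.82 CPM (2.204 to 9.15) and 3.61 CPM (2.17 to 5.64). For all 3 the intervals of the libraries overlapped widely. At these counts, only large differences could have been detected.

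**Figure D1:**
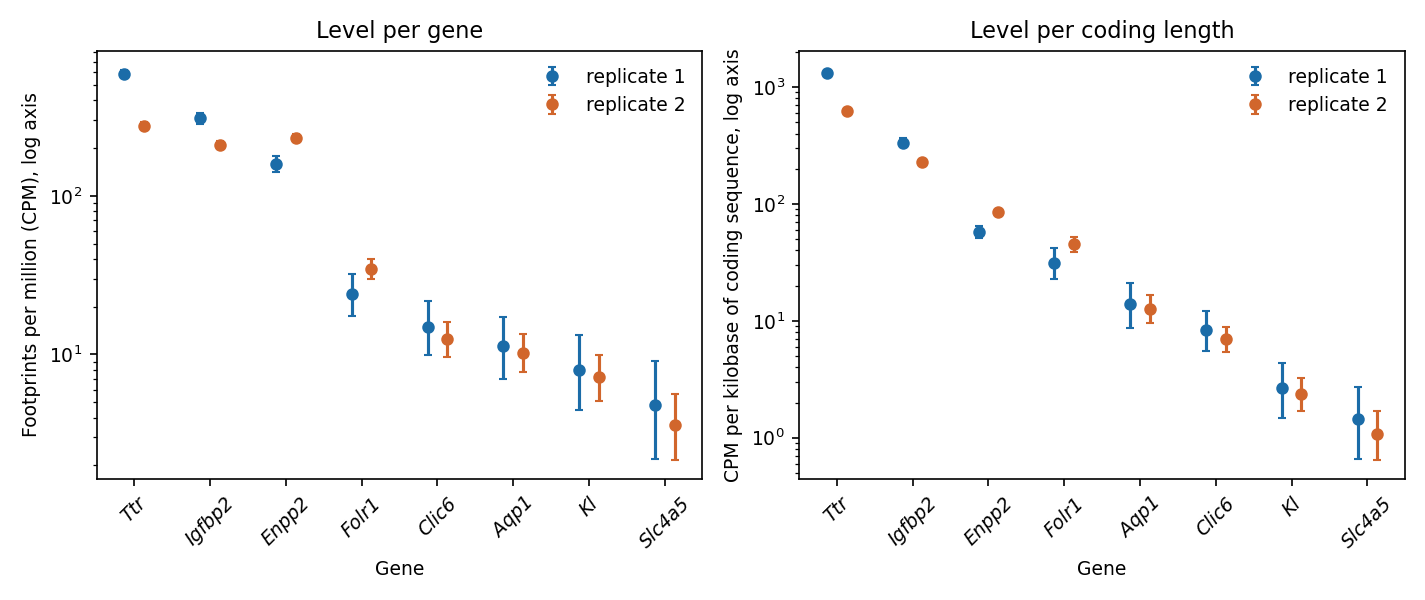
Levels of the 8 genes in replicate 1 (blue) and replicate 2 (orange), as CPM per gene on the left and as CPM per kilobase of coding sequence on the right, both on log axes; points are single libraries and bars are 95% Clopper-Pearson intervals. Ttr stands highest in both libraries and Slc4a5 lowest, and the replicates separate for Ttr, Igfbp2 and Enpp2.

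Levels of different genes were compared per kilobase of the longest annotated coding sequence. On this scale the order was the same in both libraries, namely Ttr, Igfbp2, Enpp2, Folr1, Aqp1, Clic6, Kl and Slc4a5. Mean levels per kilobase ran from 967 ± 487 CPM for Ttr (SD, n = 2) through 281 ± 75.8 for Igfbp2, 71.2 ± 18.8 for Enpp2 and 38.3 ± 9.83 for Folr1. They went on to 13.3 ± 0.861 for Aqp1, 7.69 ± 0.970 for Clic6, 2.51 ± 0.189 for Kl and 1.26 ± 0.255 for Slc4a5. Ttr, Igfbp2, Enpp2 and Folr1 were each separated from their neighbours by more than the counting intervals in both libraries. Aqp1 and Clic6 were not separated in replicate 1, where their intervals ran from 8.60 to 21.2 and from 5.56 to 12.1, but they were in replicate 2 (9.52 to 16.5 against 5.42 to 8.91). Kl and Slc4a5 overlapped in both libraries. Dividing by the length of the transcript with the highest count instead changed the place of none of the 8 genes. Only the length was changed there, and counts stayed summed over transcripts. Folr1-004 alone, with 256 codons, had 7 and 24 footprints, below the 21 and 54 of Aqp1-001 with 270 codons. The place of Folr1 above Aqp1 therefore rests on the sum over its transcripts.

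Together the genes took 2076 footprints in replicate 1 and 4137 in replicate 2. This was 0.111% and 0.0786% of the libraries, or 1112 CPM (1065 to 1161) and 786 CPM (762 to 811), with a mean of 949 ± 230 (SD, n = 2). Without Ttr, the other 7 genes summed to 530 CPM (497 to 564) and 510 CPM (490 to 529), intervals that overlapped. After TMM scaling (trimmed mean of M values, which allows for a shift in the bulk of genes), the sum of these 7 had a log2 ratio of replicate 2 over replicate 1 of -0.18 (-0.29 to -0.08), against -0.63 (-0.70 to -0.55) for all 8. With Igfbp2 left out too, the ratio of the remaining 6 was 0.31 (0.15 to 0.47), so the lower sum rested on Ttr and Igfbp2. Ttr made up 52.4% of the members' footprints in replicate 1 (50.2 to 54.5) and 35.2% in replicate 2 (33.7 to 36.7). Enpp2 made up 14.3% (12.8 to 15.9) and 29.5% (28.1 to 30.9). The share of Igfbp2 was nearly the same in both, at 27.6% (25.7 to 29.6) and 26.6% (25.2 to 28.0). These shares do not depend on how the libraries are scaled to each other. For each Enpp2 footprint there were 3.66 Ttr footprints in replicate 1 and 1.19 in replicate 2, and for each Folr1 footprint there were 24.2 and 7.96.

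The replicates were then compared gene by gene. Each count was set by an exact binomial test, two-sided, against the ratio of the library sizes after TMM scaling. P-values were adjusted across all 16427 genes whose mean count was 10 or more, and an adjusted p under 0.05 was called. The test sets 1 library against another within 1 group, so it speaks of these libraries and of no condition. It called 17.4% of all genes tested, 5.95% as higher and 11.5% as lower in replicate 2. With library totals in place of TMM it called 19% of them, 11.5% as higher and 7.47% as lower. All 8 choroid plexus genes were tested and 3 were called, which is a small count to read against that background. Their median log2 ratio of replicate 2 over replicate 1 was -0.32, where that of all genes tested was 0.01. That median lay between Clic6 at -0.37 and Kl at -0.26. Both had few footprints and were not called, so the median does not show a shift of the set.

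Ttr was lower in replicate 2, with a log2 ratio of -1.20 (95% interval -1.31 to -1.08) (exact binomial test, adjusted p 1.45e-86). Its ratio lay at percentile 0.420 of all genes tested. Igfbp2 was lower too, with a log2 ratio of -0.68 (-0.83 to -0.53) (exact test, adjusted p 3.9e-17). Enpp2 was higher in replicate 2, with a log2 ratio of 0.42 (0.23 to 0.61) (exact test, adjusted p 9.16e-05). The interval of Enpp2 shared no value with that of Ttr or of Igfbp2, nor did those of Ttr and Igfbp2 meet.

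The other 5 genes were not called. Folr1 had a log2 ratio of 0.40 (-0.07 to 0.91), which was close to that of Enpp2 but rested on fewer footprints. Kl had a log2 ratio of -0.26 (-1.18 to 0.69), Aqp1 of -0.25 (-1.01 to 0.54), Clic6 of -0.37 (-1.04 to 0.31) and Slc4a5 of -0.48 (-1.76 to 0.78). Every one of these intervals held 0. Those of Aqp1, Clic6 and Folr1 lay wholly above the interval of Ttr, while those of Kl and Slc4a5 reached into it. The sum of the 5 uncalled genes was 63.2 CPM (52.3 to 75.7) in the first library and 68.4 CPM (61.5 to 75.9) in the second. With edgeR's exact test, which adds a common dispersion estimated from these same libraries (a biological coefficient of variation of 0.166), 0 of the 8 genes were called. Ttr alone had an unadjusted p under 0.05 there, with an adjusted p of 0.408, and that test called 0.067% of all genes.

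**Figure D2:**
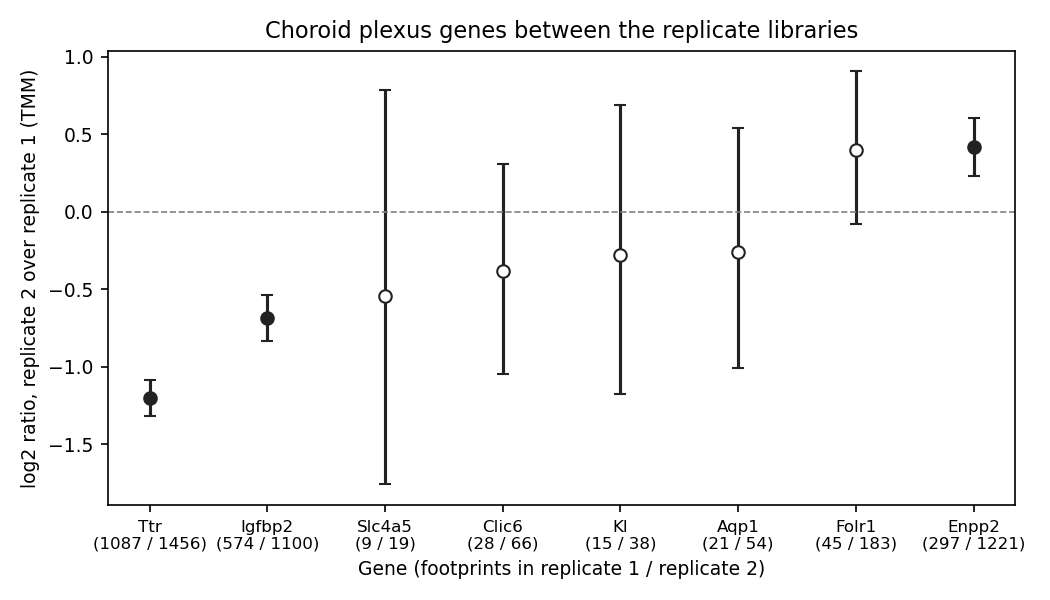
Log2 ratio of replicate 2 over replicate 1 for each gene after TMM scaling and without a prior count, with 95% intervals for counting error; filled points were called by the exact binomial test and open points were not, and the footprint counts stand under each name. Ttr and Igfbp2 lie below 0 and Enpp2 above it, while the intervals of the other 5 genes cross 0.

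Across the table, the log2 ratio was lower for genes with denser footprints, and the members lay at both ends of that range. Genes were split into 10 equal bins by mean count per nucleotide of the longest transcript. In the bin with the lowest density the median log2 ratio was 0.12. In the densest it was -0.25, and 51.1% of those genes were called. Ttr had 1.04 footprints per nucleotide, at percentile 99.3 of the genes tested, and Igfbp2 had 0.640, at percentile 98.1. Enpp2, at 0.223 and percentile 89.7, was also dense, yet its ratio lay on the other side of 0. Removing the trend left Ttr at -0.77 (adjusted p of the exact binomial test 6.44e-36), Igfbp2 at -0.34 (0.000123) and Enpp2 at 0.56 (2.81e-08). These 3 genes were called in every setting of the exact binomial test that was tried.

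Genes with a pair of levels like that of Ttr were sought among the 8059 other genes that had 100 or more footprints on average, by Euclidean distance of the log2 CPM values over the 2 libraries. The nearest were Stmn3 (564 and 281 CPM, distance 0.05), Marcksl1 (540 and 270 CPM, distance 0.11) and Cfl1 (509 and 290 CPM, distance 0.21). Cfl1 encodes the actin-severing protein cofilin, and none of the 3 is in the choroid plexus lists used here. With 2 libraries, such likeness describes a level and a ratio alone.

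Transcript counts showed where within each gene the footprints were assigned. Footprints were found on 30 of the 36 transcripts in replicate 1 and on 32 in replicate 2, and 17 reached a mean count of 10. The exact binomial test across 43655 transcripts called 6.15% of them, 0.662% as higher and 5.48% as lower in replicate 2. It called 2 of the 17, Ttr-201 and Igfbp2-001, both lower. Ttr, Aqp1 and, in replicate 1, Clic6 had all their footprints on 1 transcript, because Ttr and Aqp1 have a single annotated transcript and the short Clic6-002 had 0 footprints in replicate 1 and 3 in replicate 2.

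Igfbp2 was the member in which a transcript's share of the footprints differed between the libraries by more than counting error. Igfbp2-001, which holds the whole coding sequence of 306 codons, had 391 and 647 footprints. Igfbp2-002, with a shorter coding sequence of 159 codons, had 90 and 228, and the retained intron Igfbp2-003 had 93 and 225. Igfbp2-001 thus took 68.1% of the gene's footprints in replicate 1 (64.1 to 71.9) and 58.8% in replicate 2 (55.8 to 61.7), and these intervals did not overlap. On the TMM scale of transcripts, its log2 ratio was -0.95 (-1.14 to -0.77; exact binomial test, adjusted p 5.96e-21). The other transcripts were not called, at -0.34 (-0.70 to 0.03) for Igfbp2-002 and -0.40 (-0.76 to -0.04) for Igfbp2-003. Igfbp2-001 also had the densest footprints of the 3, at 0.299 and 0.495 per nucleotide, against 0.0908 and 0.230 for Igfbp2-002. These are shares of assigned counts, and how fragments common to several transcripts were placed is not given, so they are not isoform levels.

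RefSeq (GRCm38.p6) lists 2 start sites for Igfbp2 on the plus strand, 907 bases apart, and the 250 bases before each are printed because the counts assigned to the gene's transcripts differed in their shares between the libraries. The deposited table gives no coordinates, so which transcript begins at which site is not recorded in it. Capitals mark GGGCGG, the core of the GC box that Sp1 binds, which was searched on both strands as GGGCGG and CCGCCC. The motif was found 3 times before the upstream start and 0 times before the downstream one.
Igfbp2 upstream start, chr1:72824230-72824479: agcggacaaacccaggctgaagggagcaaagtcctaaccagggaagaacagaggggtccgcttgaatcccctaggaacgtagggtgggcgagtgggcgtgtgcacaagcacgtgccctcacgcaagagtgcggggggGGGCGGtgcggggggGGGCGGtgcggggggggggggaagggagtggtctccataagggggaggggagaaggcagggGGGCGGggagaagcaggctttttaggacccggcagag
Igfbp2 downstream start, chr1:72825137-72825386: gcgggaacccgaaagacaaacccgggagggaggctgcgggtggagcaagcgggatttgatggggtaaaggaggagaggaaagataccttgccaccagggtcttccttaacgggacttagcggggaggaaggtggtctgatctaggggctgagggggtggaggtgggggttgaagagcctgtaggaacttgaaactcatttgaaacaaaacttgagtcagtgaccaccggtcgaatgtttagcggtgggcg
The window before the upstream start was 67.2% G and C and the other 56.4%, where the median of all 32851 windows of this length was 52.4%. The motif was present in 32.7% of all windows. Windows were also found for Kl, Aqp1 and Slc4a5, with 2, 1 and 1 matches. A match describes these letters and is not evidence of binding.

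Enpp2 and Folr1 showed a different arrangement, with footprints spread over transcripts that share most of their coding sequence. The 4 Enpp2 transcripts, with 863 to 915 codons, had between 68 and 79 footprints in replicate 1 and between 290 and 318 in replicate 2. Their shares lay between 22.9% and 26.6% in both libraries, and all 4 log2 ratios were above 0, from 0.24 to 0.52. None of the 4 was called alone, although their sum was. Folr1 had 17 annotated transcripts, of which 14 had footprints in replicate 1 and 15 in replicate 2. The 6 that hold the whole coding sequence of 256 codons had 3 to 7 footprints each in replicate 1 and 16 to 24 in replicate 2. The variance of such counts over their mean was 0.282 and 0.527 for Enpp2 and 0.400 and 0.455 for Folr1. Isoform levels of these genes cannot be read from the table, since a fragment in a shared exon matches every transcript that holds the exon.

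Kl and Slc4a5 rested on few footprints per transcript. Kl-001, the transcript with the whole coding sequence, had 11 and 25 footprints, and the retained intron Kl-002 had 4 and 13. Slc4a5 had footprints on 4 of its 6 transcripts in each library, with at most 5 on one transcript in replicate 1 and 8 in replicate 2, so none reached a mean count of 10.

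**Figure D3:**
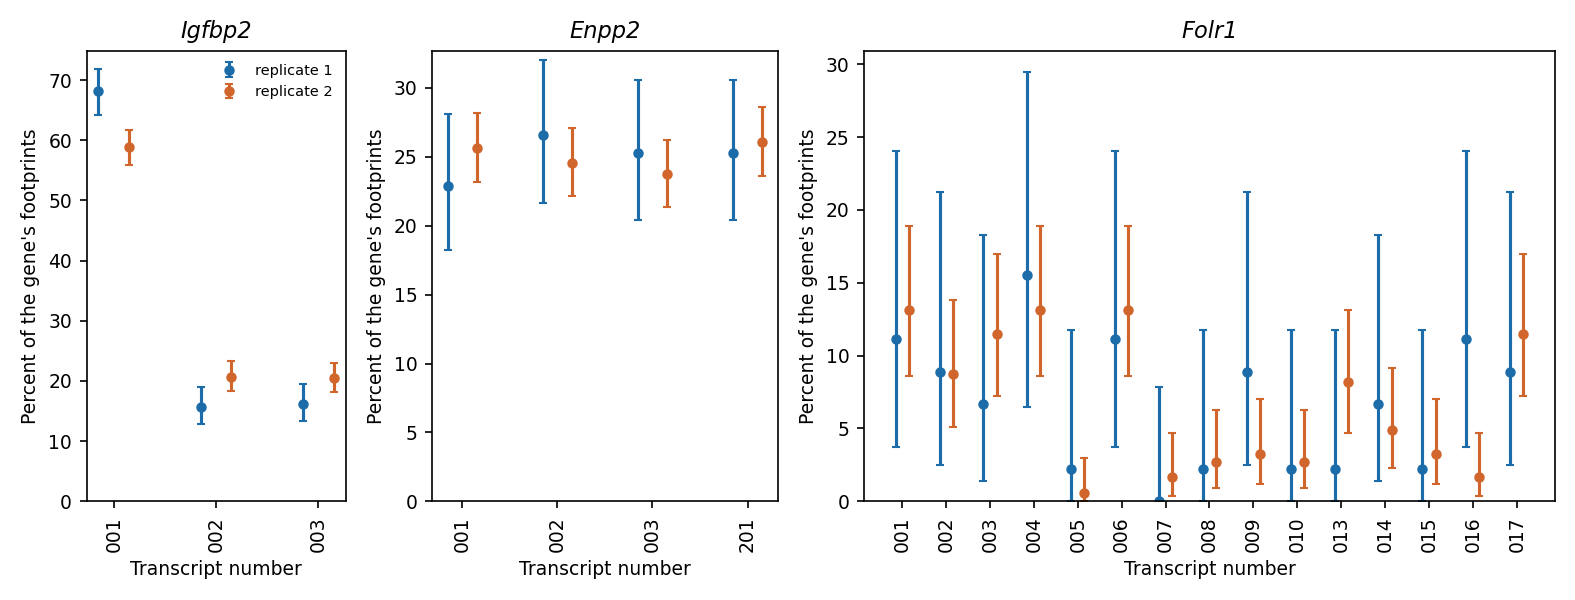
Share of the gene's footprints assigned to each annotated transcript of Igfbp2, Enpp2 and Folr1 in replicate 1 (blue) and replicate 2 (orange), in percent, with 95% Clopper-Pearson intervals; transcripts with 0 footprints in both libraries are left out. The intervals of Igfbp2-001 do not overlap, whereas the 4 Enpp2 transcripts stay near equal shares.

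A wider list of 46 further choroid plexus genes gave the setting of the 8. It found 45 in the table, of which 38 were tested, and 4 were called higher and 3 lower in replicate 2. With library totals the split was 6 higher and 1 lower. With TMM the median log2 ratio was 0.01, the same as that of all genes tested, and the share called was near the background. The list summed to 1846 CPM (1785 to 1909) and 1967 CPM (1930 to 2006). The direction of that sum turned with the scaling, from a log2 ratio of 0.09 with library totals to -0.03 (-0.09 to 0.02) with TMM.

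Secreted proteins of the wider list took 955 ± 27.9 CPM (SD, n = 2), most of it from Clu and Igf2. Clu encodes clusterin, an extracellular chaperone that astrocytes also make, and had 463 and 433 CPM. Igf2, a growth factor that the choroid plexus and the meninges secrete, had 394 and 343 CPM and was lower in replicate 2, with a log2 ratio of -0.32 (adjusted p of the exact binomial test 9.29e-06). Clu was called at -0.22 with TMM (exact test, adjusted p 0.00157), but not with library totals, where its ratio was -0.10. Cp, the ferroxidase ceruloplasmin, had 27 and 171 footprints and was higher in replicate 2, at 1.02 (exact test, adjusted p 0.00224). It lies just under the count at which genes were named and is given because it was called.

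Transporters took 631 ± 77.4 CPM and vitamin-handling genes 123 ± 17.3 CPM. Slc4a10, a sodium-coupled bicarbonate transporter that neurons also use, had 116 and 183 CPM and a log2 ratio of 0.52 (exact test, adjusted p 1.4e-05). Slco1c1, a thyroxine transporter also found in brain endothelium, had 64.8 and 103 CPM and a ratio of 0.53 (exact test, adjusted p 0.00176). Slc19a1, the reduced folate carrier, had 25.2 and 43.7 CPM and a ratio of 0.66 (exact test, adjusted p 0.0229). Among them, 11 of the 14 tested transporters and 4 of the 5 vitamin genes were not called.

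Transcription factors, junction genes and receptors of the wider list gave 0 calls among the 9 tested with TMM. The serotonin receptor gene Htr2c, with 72 and 309 footprints and a log2 ratio of 0.48 (exact test, adjusted p 0.0569), was called higher with library totals, with DESeq2 size factors and when only genes with 100 or more footprints on average were tested. Otx2, which the choroid plexus epithelium needs to form, had 33 and 128 footprints, or 17.7 and 24.3 CPM, and a log2 ratio of 0.33. Kcnj13, a potassium channel of the apical membrane, had 10 and 33 footprints. Claudins and keratins together took 19.0 ± 0.316 CPM. Prlr, the prolactin receptor, had 2 and 4 footprints, and Steap1 and Slco1a5 had 0 in replicate 1, which allows up to 1.61 CPM there.

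Relatives of the 8 genes put their levels in the context of the gene families. Of the 7 IGF binding protein genes, 6 were tested and 4 were called, all lower in replicate 2, under TMM scaling. Over all genes tested, 11.5% were called lower. When only genes with 100 or more footprints on average were tested, 34% were called in either direction, and the 4 called genes lie in that range. Igfbp2 was joined by Igfbp5 (293 and 209 CPM, log2 ratio -0.61), Igfbp7 (90.5 and 60.4 CPM, -0.70) and Igfbp4 (104 and 81.5 CPM, -0.48), and all 4 stayed lower and called with library totals. Igfbp3 had a ratio of 0.57 that was not called with TMM (exact test, adjusted p 0.0878) and was called with library totals. Per kilobase of coding sequence, Igfbp5 was at 308 ± 72.9 CPM and Igfbp2 at 281 ± 75.8. Igfbp5 was the higher in each library, at 359 against 335 CPM in replicate 1 and 256 against 228 CPM in replicate 2. This order was not tested.

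Aqp4, the water channel of astrocytes, was the most abundant aquaporin at 131 ± 5.47 CPM per kilobase (SD, n = 2), where Aqp1 had 13.3 ± 0.861. Of the 11 aquaporins, 5 had footprints in both libraries. Among 10 SLC4 genes, Slc4a4, an electrogenic cotransporter of astrocytes, had 74.6 ± 10.7 CPM per kilobase, far above Slc4a5. Clic4 and Clic1 stood at 77.6 ± 12.3 and 62.2 ± 8.66 CPM per kilobase, well above Clic6. Enpp5 exceeded Enpp2 on this scale, at 110 ± 15.7 against 71.2 ± 18.8. Enpp1 was called higher in replicate 2 with 3 and 55 footprints (log2 ratio 2.27, 95% interval 0.95 to 4.90) and is named because it was called. Folr2 had 2 and 5 footprints, and Klb and Lctl, the relatives of klotho, had 0 in both libraries.

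Ligands and receptors that act with the secreted members were described in the same way. Of 20 such genes, 16 were tested, 1 was called higher and 3 lower in replicate 2, and the median log2 ratio was 0.08. Igf2 was among the lower genes, as was Thra, a thyroid hormone receptor with 564 and 492 CPM (log2 ratio -0.32). Receptors of lysophosphatidic acid, the product of the Enpp2 enzyme, took 47.6 ± 9.78 CPM, and 0 of the 4 tested were called. Fgfr1, which pairs with klotho, had 78.2 and 98.6 CPM and a ratio of 0.21 that was not called.

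Several of the 8 genes are also made by other brain cells, so marker lists of those cells were set beside them. Oligodendrocyte markers, among them Mbp of myelin, summed to 739 and 1111 CPM. Of the 9 tested, 6 were called, all higher in replicate 2 as Enpp2 was, with a median log2 ratio of 0.63, and Opalin had 0 footprints in both libraries. Over all genes tested, 5.95% were called higher and 11.5% lower with TMM. The part of oligodendrocytes in the Enpp2 result was not tested. Markers of meninges and fibroblasts, which also express Igfbp2, summed to 1438 and 1364 CPM, with 1 of 10 called higher and 3 lower in replicate 2. Astrocyte markers summed to 2158 and 2119 CPM, with 2 of 8 called, both lower. With library totals, the calls were 1 higher and 1 lower for meninges and 1 higher and 2 lower for astrocytes. The part of these cells in the Igfbp2 result was not tested.

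Ependymal markers, from the ciliated cells that line the ventricles beside the choroid plexus, were at 72.9 and 73.4 CPM in sum, with 0 of 8 called. The endothelial sum was 316 and 293 CPM, with 1 of 8 called, lower in replicate 2; with library totals 2 were called higher and 1 lower. Markers of red cells summed to 2484 and 1702 CPM, with 4 of 5 called, all lower in replicate 2 as Ttr was. The called genes were the globins Hba-a1, Hba-a2, Hbb-bs and Hbb-bt, near-identical pairs that may share fragments. Alas2, the remaining marker, went the other way, with 20 and 91 footprints and a log2 ratio of 0.54 that was not called. Over all genes tested, 11.5% were called lower with TMM. In the bin with the densest footprints, 51.1% were called in either direction. For the red cell markers the density trend was not removed. All 8 neuronal markers had a log2 ratio below 0, with a median of -0.38. Of them, 5 were called lower in replicate 2 with TMM and 4 with library totals. The part of blood, tissue composition or depth in the Ttr result was not tested.

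**Figure D4:**
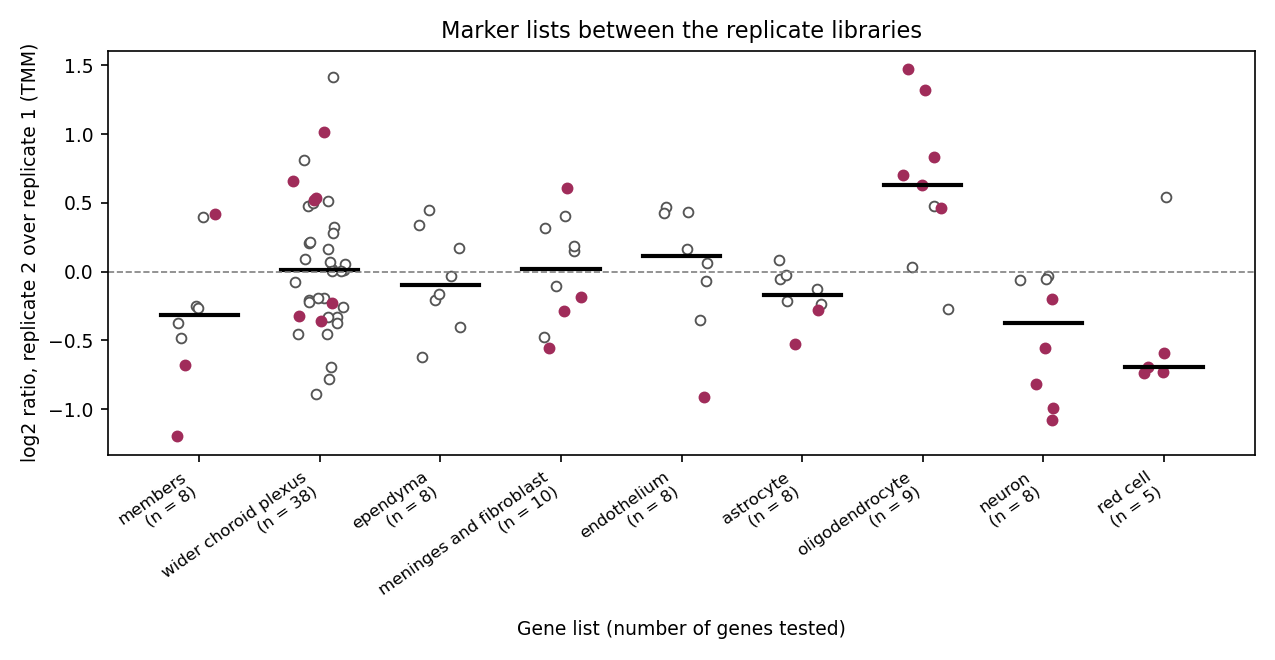
Log2 ratio of replicate 2 over replicate 1 after TMM scaling for every tested gene of the 8 choroid plexus genes (members), the wider choroid plexus list and 7 marker lists; each point is 1 gene, filled where the exact binomial test called it, and bars are medians. The wider list centres on 0.01 and the 8 genes on -0.32, with oligodendrocyte markers at 0.63 and red cell markers at -0.69. The median of the 8 genes lies between Clic6 and Kl, which were not called.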

How the data were processed

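The authors deposited 1 table of raw counts of ribosome footprints, fragments of 25 to 35 nucleotides, for 109463 transcripts, with annotated lengths and 1 column per replicate, per the file headers and the labels' protocols. The submitters' processing notes name Trimmomatic 0.36, Bowtie2 2.2.6, SAMtools and the build GRCm38.p4; annotation release, strand, duplicates and shared fragments are not given in the sources used here. Counts were summed over the transcripts of a gene. Near-identical, overlapping and antisense genes stay uncertain. TMM factors came from edgeR 4.0.16, and log2 ratios used a prior of 0.5 CPM. A single group offers no contrast for edgeR's quasi-likelihood test, so the exact binomial test (SciPy 1.17.1) was used, adjusted by Benjamini-Hochberg and checked on simulated counts. Copies made by PCR are not separate molecules, and p-values, floors and intervals reflect counting error alone. The replicates differed beyond counting noise and are not 1 library deposited again. Members and lists were chosen with earlier results of these data known. Beside the 8 genes, the text names the 5 most abundant genes of each list, called genes averaging 100 or more footprints (up to 5 in each direction), the 3 genes nearest to Ttr, and others singled out afterwards; some genes of the lists are not reported here. RefSeq windows were used for 4 of the 8 genes, and protein sequences were not used here.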

Additional observations from a re-analysis of the deposited data

How the results depend on the processing

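The number of called choroid plexus genes was 3 with TMM, DESeq2 1.42.0 size factors, library totals, no filter, a mean count of at least 100, the highest transcript per gene, coding transcripts only and the density trend removed. All 8 were tested, except for 4 at a mean count of at least 100 and 7 with the highest transcript per gene. Of all genes, 34% and 9.41% were called in those settings, in that order. The share was 9.93% with no filter and 16.1% to 19% in the others. With edgeR's exact test 0 choroid plexus genes were called, with 1 at an unadjusted p under 0.05, where 0.067% of all genes were called. The wider list gave 7 calls, 4 with the highest transcript per gene and 0 with edgeR's exact test (1 at an unadjusted p under 0.05). Fewer footprints enter with 1 transcript per gene, and the dispersion adds to the spread by construction. The summed level of 949 CPM became 1317 with the highest transcript per gene and 1190 with coding transcripts only, where the library totals shrink too, and ran from 786 to 1112 when 1 replicate was left out. TMM moved log2 ratios by -0.13 against library totals. No paired analysis was possible because both libraries belong to 1 group. Depth limits Clic6, Aqp1, Kl and Slc4a5, whose intervals span more than 1 on the log2 scale.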
